A study of Homo sapiens with 40 samples.

Results

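The ZNF genes are human genes named for zinc finger proteins, and 177 of them were described here across input and polysome RNA of a bronchial epithelial cell line. A gene was a member when its symbol was ZNF, a number and at most 1 letter, and when its mean over the 20 input libraries was at least 3 TPM, a transcript level scaled for length and depth. Of 62263 genes deposited, 563 had such a symbol, and 177 of those reached the level. All 177 members passed the filter on low counts and were tested among 16735 genes. By the GENCODE 29 annotation 66 members lay on chromosome 19, 18 on chromosome 16, and 11 each on chromosomes 1 and 7. The members were chosen by measured input values, and the same values enter every comparison of polysome with input, so counts of members in that comparison are a description, set beside other genes past the same input threshold. Just inside the threshold were ZNF431 at 3.00 TPM, ZNF271P at 3.01 TPM and ZNF365 at 3.04 TPM. Just outside it were ZNF77 and ZNF731P at 2.98 TPM and ZNF341 at 2.97 TPM.

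Most ZNF proteins carry tandem zinc fingers, short units in which paired cysteines and paired histidines hold a zinc ion, and each finger reads a few bases of DNA. Many also carry a KRAB domain at their amino end, which binds the corepressor TRIM28 and through it the histone methyltransferase SETDB1, a pathway known for silencing transposable elements. KRAB genes arose by tandem duplication and stand in large clusters on chromosome 19, whereas a smaller group carries a SCAN domain, which lets the proteins pair with each other. In Frac-seq, RNA bound to several ribosomes is separated from the cell extract on a sucrose gradient and sequenced beside the unseparated input, so that the ratio of the fractions shows how far a transcript is recovered with polysomes relative to other transcripts.

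The cells were BEAS-2B, an immortalised human bronchial epithelial line. They were stable derivatives with a control hairpin (shControl) or a hairpin against IGF2BP3 (shIGF2BP3), an RNA-binding protein that acts on mRNA stability and translation. The derivatives were left unstimulated or given IL-13, a cytokine of allergic airway inflammation, at 100 ng/ml for 24 h after a night in 2% serum. Fraction, treatment and derivative gave 8 groups of 5 libraries. Each hairpin was represented by 1 stable derivative, and its knockdown cannot be told apart from whatever else sets the derivatives apart. Column headings use siC and siIGF2BP3 for what the protocol describes as short hairpins, and the protocol was followed. The labels do not say whether the 5 libraries of a group came from separate cultures, so p-values measure the spread between these libraries, which may be technical.

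Input libraries held 14044352 to 40441061 estimated counts and polysome libraries 1816848 to 34082191. Only 3 libraries had fewer than 5000000 counts, all of shIGF2BP3 polysome RNA (unstimulated replicates 1 and 5 and IL-13 replicate 5). IGF2BP3 itself was 0.43 lower on the log2 scale in unstimulated shIGF2BP3 input and 0.45 lower with IL-13, within the spread after adjustment over 4 settings (exact permutation test, two-sided, adjusted p = 0.206 and 0.190). In polysome RNA it differed by -0.03 and -0.28 (exact permutation p = 0.976 and 0.556), so each direction given for the knockdown rests on the labels. The keratins KRT7, KRT8, KRT18 and KRT19 were all expressed, while KRT5, EPCAM and CDH1 stayed at or under 1.14 TPM in every input library and the mesenchymal genes VIM, FN1 and CDH2 were present. Markers of ciliated and secretory airway cells (FOXJ1, SCGB1A1, MUC5AC, MUC5B) reached at most 0.207 TPM in sum in input.

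The members' coding sequences show the repeated unit that defines the family. The following runs are 1 finger-coding unit each, from the codon of the leading cysteine to that of the last histidine, taken from GENCODE 29 transcripts on GRCh38 and written 5′ to 3′ along the coding strand, with the 4 zinc-holding codons in capitals. ZNF219 and ZNF358 are shown because they were the abundant members lowest in polysomes, ZNF394 and ZNF226 because they were higher there, and ZNF426 because it was lower in shIGF2BP3 cells. Each unit lies within 1 exon and spans 63 bases.
ZNF219: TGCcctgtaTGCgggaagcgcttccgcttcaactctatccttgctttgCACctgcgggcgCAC
ZNF358: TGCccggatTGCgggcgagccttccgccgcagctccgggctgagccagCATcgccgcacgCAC
ZNF394: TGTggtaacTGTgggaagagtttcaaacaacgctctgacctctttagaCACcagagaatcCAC
ZNF226: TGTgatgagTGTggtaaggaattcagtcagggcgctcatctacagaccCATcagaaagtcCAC
ZNF426: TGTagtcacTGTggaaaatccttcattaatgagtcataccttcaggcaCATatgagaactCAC

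These units are exonic and coding. That of ZNF219 is at chr14:21093060-21093122 on the minus strand in exon 3, and that of ZNF358 at chr19:7519699-7519761 on the plus strand in exon 2. The ZNF394 unit is at chr7:99494075-99494137 on the minus strand in exon 3. On chromosome 19 the ZNF226 unit is at chr19:44176187-44176249 on the plus strand in exon 7, and the ZNF426 unit at chr19:9529307-9529369 on the minus strand in exon 8. The same fold was written in very different base compositions. GC content was 74.6% in the ZNF358 unit, 60.3% in ZNF219, 49.2% in ZNF226, 46.0% in ZNF394 and 39.7% in ZNF426.

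The features of the whole set followed the same split. A coding model was found for 176 members, all but ZNF271P, a transcribed pseudogene. Their median coding length was 1697 bases and their median number of fingers 8.5, with 33 fingers in ZNF462 and none of this exact pattern in 7 members. A KRAB pattern stood in 68 members, 43 of the 66 on chromosome 19 and 25 elsewhere, and a SCAN pattern in 11. On chromosome 19 the 43 KRAB members had a median transcript GC of 44.9% and a median input level of 4.22 TPM, whereas the 23 others there had 62.6% and 15.3 TPM. Chromosome 19 therefore held members of opposite composition, AT-rich KRAB genes of low level and GC-rich genes without KRAB of higher level.

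The members were transcripts of low to moderate level, with a median of 6.88 TPM in input and 63 of 177 at 10 TPM or more. The highest was ZNF207, which encodes a microtubule-binding protein of the mitotic spindle, at a mean of 92.9 TPM. It was followed by ZNF428 at 76.8 TPM, ZNF706 at 72.1 TPM, ZNF593 at 69.1 TPM, ZNF511 at 68.2 TPM and ZNF358 at 68.0 TPM. ZNF768 (64.5 TPM), ZNF580 (52.3 TPM), ZNF219 (47.1 TPM) and ZNF787 (35.1 TPM) completed the 10 highest. None of these 10 held a KRAB pattern, and 4 of them (ZNF428, ZNF358, ZNF580 and ZNF787) lay on chromosome 19. Over the 20 input libraries the median coefficient of variation of a member was 21.7%.

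More members were lower than higher in polysome RNA. In the mean of the 4 settings 91 of 177 (51.4%) were called lower and 27 (15.3%) higher at an adjusted p under 0.05 in edgeR, where 38.9% of all genes tested were called lower and 26.2% higher. Among the 9913 genes of at least 3 TPM in input, 40.9% were called lower and 36.8% higher. The median log2 ratio of polysome to input was -0.31 over the members, -0.24 over all genes tested and -0.05 over genes of at least 3 TPM. These genes share the threshold but not the level, since protein-coding genes of at least 3 TPM had a median input of 18.0 TPM against 6.88 TPM over the members. Within bins of input level the gap was smaller in the lower bins and wider in the higher ones. From 3.00 to 7.83 TPM the median ratio was -0.40 over 98 members and -0.24 over all protein-coding genes of the bin. From 7.83 to 18.0 TPM it was -0.27 over 50 members and -0.10. From 18.0 to 48.3 TPM it was -0.16 over 20 members and 0.15, and above 48.3 TPM -0.29 over 8 members and 0.23. Without unstimulated shIGF2BP3 polysome replicate 5, the shallowest library at 1816848 counts, the members called higher rose to 44. No count over all genes is given for that single omission. Without all 3 libraries under 5000000 counts 41 members were called higher and 82 lower. Over all genes 5000 were called higher and 6096 lower of 17405 in that fit, against 4385 and 6515 of 16735 in the main fit. These ratios are relative to the other transcripts of a library. In bulk RNA fewer cells with a transcript and less of it per cell cannot be told apart.

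**Figure D1:**
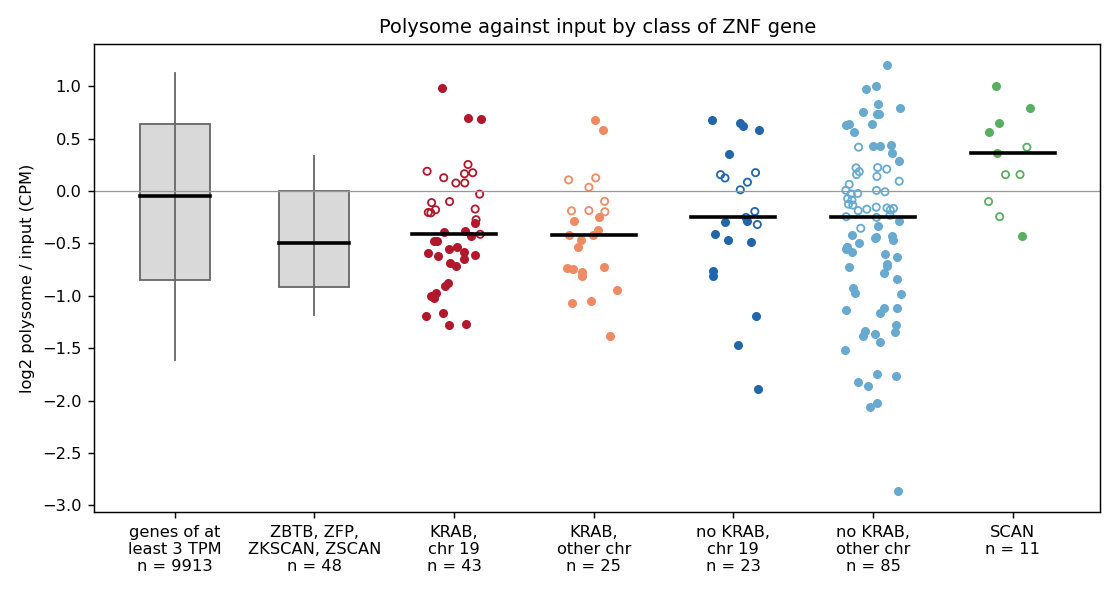
Log2 ratio of polysome to input (CPM, mean of 4 settings, vertical axis) by class of gene. Grey boxes span the interquartile range of other genes with lines to their 10th and 90th percentiles, points are ZNF members (filled where called in edgeR), black bars are medians, and the SCAN points also stand in the classes before them. The KRAB classes have medians of -0.41 on chromosome 19 and -0.42 elsewhere, and 8 of 11 SCAN members lie above 0.

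The same lean appeared in each pair of an input and a polysome library that share group and number. The polysome share, which is polysome TPM over the sum of polysome and input TPM, had a median over members of 36.8% to 49.5% across the 20 pairs, against 41.8% to 51.2% over genes of at least 3 TPM. The members' median share was the lower in 20 of 20 pairs, and the members' median log2 ratio was lower by a mean difference of -0.17 ± 0.0866 (SD, n = 20). By member, 33 had a share under 50% in every pair and 4 a share over 50% in every pair, namely ZNF740, ZNF346, ZNF174 and ZNF226. That count was not made over other genes. By mean share over the pairs, 135 of 177 members and 5745 of 9913 genes of at least 3 TPM lay under 50%. Chromosome 19 made no steady difference. Its members' median log2 ratio lay above that of the other members in 14 pairs and below it in 6, with a mean difference of 0.06 ± 0.116 (SD, n = 20).

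**Figure D2:**
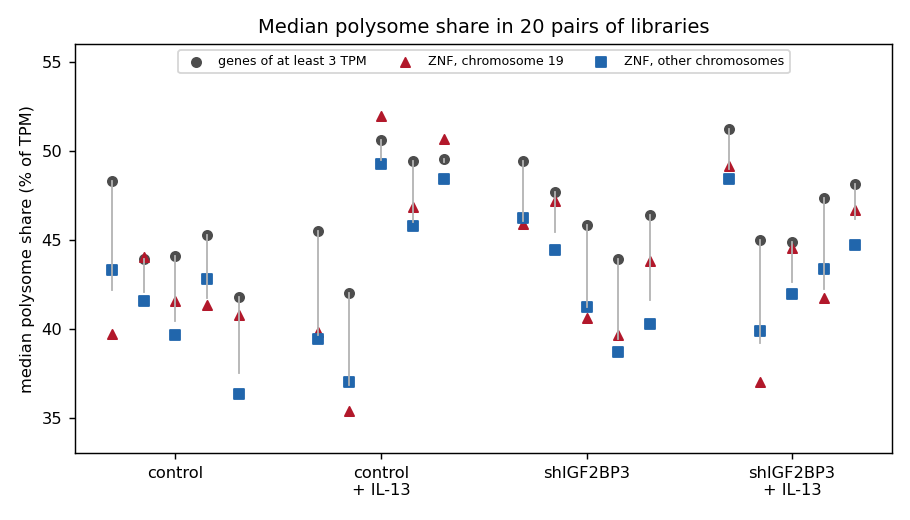
Median polysome share (percent of TPM, vertical axis, which does not start at 0) in 20 pairs of libraries, 5 for each treatment and hairpin. Grey circles are genes of at least 3 TPM, red triangles ZNF members on chromosome 19, blue squares members elsewhere, and each vertical line runs from the circle to the median of all members, which is below the circle in 20 of 20 pairs.

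In 11 members the 20 polysome libraries all lay under the 20 input libraries in CPM, counts scaled to the library total without length, against a background of 7.15% of genes tested. Of these 11, ZNF358 alone lay on chromosome 19, and 8 had a coding sequence over 2130 bases. ZNF219 (ENSG00000165804.16) measured 35.4 to 60.5 TPM in input with a median of 47.3, and 7.40 to 20.1 TPM in polysome RNA with a median of 10.6. Its log2 ratio was -2.02 ± 0.110 (SE; edgeR adjusted p = 1.21e-18). The fractions stood apart by a wide gap, and its ratio ran only from -2.13 to -1.89 over the 4 settings. ZNF358 (ENSG00000198816.7) measured 52.2 to 80.7 TPM (median 66.9) in input and 11.5 to 30.6 TPM (median 15.9) in polysome RNA, a log2 ratio of -1.89 ± 0.113 (edgeR adjusted p = 1.60e-17). ZNF609, host gene of a well-known circular RNA, measured 7.59 to 23.9 TPM (median 18.9) and 3.32 to 8.73 TPM (median 5.14), a log2 ratio of -1.74 ± 0.0974 (edgeR adjusted p = 2.38e-18). In TPM its lowest input library and its highest polysome library overlapped, while in CPM they did not.

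ZNF638, a DNA- and RNA-binding protein that recruits the HUSH silencing complex to unintegrated retroviral DNA, had the lowest ratio of the 177 members. It measured 1.60 to 4.79 TPM in input (median 2.97) and 0 to 1.67 TPM in polysome RNA (median 0.305), and 2 polysome libraries listed it at 0. In TPM the fractions met at the edges, and in CPM they stood apart. Its log2 ratio was -2.86 ± 0.299 (edgeR adjusted p = 7.89e-11), and limma on log2(TPM + 1) gave -1.50. ZNF318, which regulates immunoglobulin isotype expression in B cells, had a log2 ratio of -1.83, ZNF532 of -1.76, ZNF618 of -1.52 and ZNF217, an oncogene amplified in breast cancer, of -1.39, each with a log2 SE of at most 0.164 and an edgeR adjusted p of at most 1.67e-12. ZNF511, the fifth most abundant member in input, was also apart, at 48.3 to 99.8 TPM in input and 14.6 to 40.0 TPM in polysome RNA (log2 ratio -1.17 ± 0.124, edgeR adjusted p = 1.15e-10). Chosen after their values were seen, ZNF462 (-2.06) and ZNF281 (-1.86) were as low, with libraries that overlapped between fractions.

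Members higher in polysomes rose by less than the lowest members fell. In 3 members, none on chromosome 19, the 20 polysome libraries all lay above the 20 input libraries (background 4.48%). ZNF740 (ENSG00000139651.11) measured 7.34 to 10.5 TPM in input (median 9.11) and 12.3 to 17.5 TPM in polysome RNA (median 15.0), a log2 ratio of 0.83 ± 0.0611 (edgeR adjusted p = 7.02e-15), the smallest SE of any member. ZNF346, which binds double-stranded RNA, measured 17.3 to 30.0 TPM (median 22.9) and 29.0 to 55.0 TPM (median 37.3), a log2 ratio of 0.73 ± 0.0677 (edgeR adjusted p = 3.58e-12). ZNF394, a SCAN member, measured 5.07 to 13.2 TPM (median 10.8) and 10.7 to 23.8 TPM (median 16.7), a log2 ratio of 0.79 ± 0.0803 (edgeR adjusted p = 3.78e-11). In TPM the ZNF346 libraries overlapped at the edges of their ranges, and for ZNF394 the lowest polysome library lay below the input median.

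Larger ratios with overlapping libraries, chosen after their values were seen, belonged to ZNF330 (1.20 ± 0.153), ZNF174 (1.00 ± 0.0830), ZNF226 (0.98 ± 0.123) and ZNF410 (0.98 ± 0.0850). ZNF410 is known for a narrow role as an activator of CHD4, whose own transcript is given below. ZNF226, a KRAB gene of chromosome 19 with 17 fingers, measured 5.29 to 23.2 TPM in input and 8.50 to 68.0 TPM in polysome RNA. Its lowest value in both fractions came from unstimulated control replicate 1. The length implied by its counts and TPM shifted between fractions, as given below, so the size of its ratio is uncertain. Of the 10 most abundant members, ZNF428 (0.36) and ZNF768 (0.43) were called higher, ZNF593 (-0.53), ZNF580 (-0.30) and ZNF706 (-0.29) lower, and ZNF207 (0.21, edgeR adjusted p = 0.0762) and ZNF787 (0.13, edgeR adjusted p = 0.265) were not called. Without unstimulated shIGF2BP3 polysome replicate 5, ZNF207 was called at 0.36, ZNF787 at 0.26, and ZNF580 was no longer called (-0.20, edgeR adjusted p = 0.0906). ZNF207 was also called without unstimulated control polysome replicate 5 (0.24). With a length offset ZNF706 (-0.15, edgeR adjusted p = 0.256) and ZNF580 (-0.20, edgeR adjusted p = 0.0895) were not called, and ZNF207 was (0.31). With DESeq2 size factors ZNF580 was not called (edgeR adjusted p = 0.0510) and ZNF207 was (0.26). Without the 3 libraries under 5000000 counts ZNF580 was not called (edgeR adjusted p = 0.127), and ZNF207 (0.36) and ZNF787 (0.25) were. DESeq2 called ZNF207 (0.26).

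**Figure D3:**
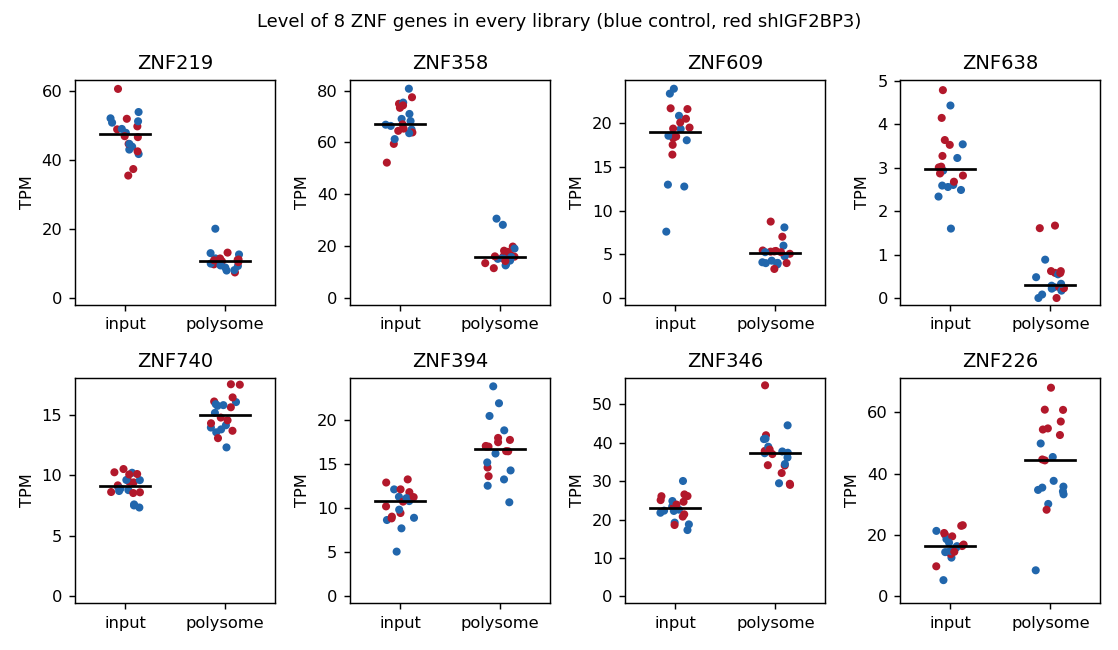
TPM (vertical axes, each with its own scale) of 8 ZNF genes in 20 input and 20 polysome libraries, with points in blue for control and red for shIGF2BP3 libraries and bars at the median. ZNF219, ZNF358, ZNF609 and ZNF638 in the upper row are lower in polysome RNA, with ZNF219 medians of 47.3 and 10.6 TPM, and the 4 genes of the lower row are higher.

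Members with and without the KRAB pattern were set side by side. Of 68 KRAB members 40 (58.8%) were called lower and 5 (7.35%) higher, with a median log2 ratio of -0.42, where 40.9% and 36.8% of genes of at least 3 TPM were called. Of the 108 without it 50 (46.3%) were called lower, near that share, and 22 (20.4%) higher, with a median of -0.25. The gap between the medians depended on the setting. Among genes of at least 10 CPM the medians were -0.34 with KRAB and -0.29 without, and in limma on log2(TPM + 1) -0.41 and -0.36. In the former the medians by chromosome, -0.28 on chromosome 19 and -0.33 elsewhere, lay as far apart and the other way. On chromosome 19 KRAB members had a median of -0.41 and elsewhere of -0.42, and members without KRAB had -0.25 on chromosome 19 and -0.24 elsewhere. Chromosome 19 members as a whole had 34 lower and 8 higher of 66 (median -0.31), and the others 57 lower and 19 higher of 111 (median -0.29). The 619 genes of at least 3 TPM on chromosome 19 that were not named ZNF had a median of 0.03. The median of the ZNF members on the chromosome lay nearer to that of members elsewhere than to that of these other genes. No test was made of these differences between lists.

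Of 11 SCAN members, 5 (45.5%) were called higher (ZNF174, ZNF394, ZNF444, ZNF232 and ZNF263), near the 36.8% of genes of at least 3 TPM, and ZNF24 was called lower. Their median was 0.37, with 8 of 11 above 0. The SCAN median stayed between 0.13 and 0.48 and the KRAB median between -0.54 and -0.31 in the other fits and scalings. Fits with a single library left out were not included in these ranges. Of the 5 called higher, 4 were not on chromosome 19. The related families ZBTB, ZFP, ZKSCAN and ZSCAN, 48 genes past the same input threshold, had 32 called lower and 6 higher with a median of -0.50. ZNF genes tested that stayed under 3 TPM in input had a median of -0.69 over 307 genes.

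Within chromosome 19, members were grouped into runs separated by over 3000000 bases, whose ranges overlapped almost wholly and between which no test was made. The run of 8 members from ZNF101 to ZNF726, 7 of them with KRAB and with a median transcript GC of 37.4%, had the lowest median at -0.76, with 6 called lower and 1 higher. The run of 37 from ZNF473 to ZNF446 had a median of -0.30 and the run of 9 from ZNF358 to ZNF627 of -0.38. In the 7 members from ZNF574 to ZNF227 the median was -0.41, and in the 5 from ZNF302 to ZNF875 it was -0.19. The 18 members on chromosome 16 had a median of -0.05 with 5 (27.8%) called higher and 7 (38.9%) lower, at the shares of all genes tested (26.2% and 38.9%), and 3 of them held a SCAN pattern.

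Longer coding sequences went with lower polysome ratios in the members as in other genes. Spearman's rho of coding length with the log2 ratio was -0.48 over 176 members and -0.43 over 9328 protein-coding genes of at least 3 TPM. These correlations are across genes, which share the libraries and their depth and are not independent replicates. The protein-coding genes were split by coding length into 4 bins of like size. In the longest, over 2130 bases, 40 members had a median of -0.96 and all genes of the bin -1.02. From 1326 to 2130 bases, where 89 members lay, the medians were -0.25 and 0.03, and from 813 to 1326 bases 0.13 and 0.63. Below 813 bases, with 12 members, they were -0.29 and 0.18. The members' medians were thus below those of genes of like coding length in the 3 shorter bins and near them in the longest. The count of fingers moved with length. Medians were -0.17 for 44 members with at most 4 fingers, -0.24 for 58 with 5 to 9, -0.30 for 50 with 10 to 14 and -0.61 for 24 with 15 or more, whose median coding lengths rose from 1289 to 2355 bases.

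**Figure D4:**
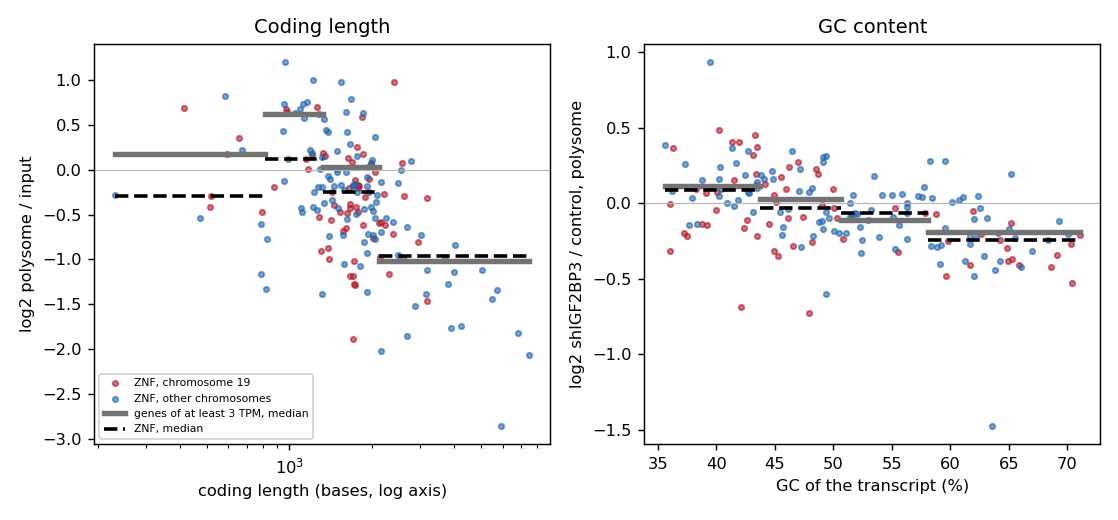
Left, log2 ratio of polysome to input against coding length in bases (log axis), and right, log2 ratio of shIGF2BP3 to control in polysome RNA against transcript GC percent, for ZNF members on chromosome 19 (red) and elsewhere (blue). Bars are medians in 4 bins of like size of the protein-coding genes of at least 3 TPM (grey) and of the members (dashed black). In the longest bin the bars lie at -1.02 for all genes and -0.96 for the members. On the right the members' median is lowest in the bin of highest GC.

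Each treatment and derivative gave a like split. In unstimulated control cells 22 members were called higher and 59 lower (background 17.4% and 22.8%), and with IL-13 23 and 47 (16.7% and 22.6%). In unstimulated shIGF2BP3 cells 16 were called higher and 52 lower (16.4% and 22.0%), and with IL-13 19 and 50 (16.0% and 23.3%). Among genes of at least 3 TPM, 27.9%, 28.2%, 28.1% and 29.7% were called lower in these settings in the same order, against 33.3%, 26.6%, 29.4% and 28.2% of the members. The members' share called lower was thus near that of these genes, and below it in both settings with IL-13. Called higher were 27.0%, 26.0%, 25.7% and 24.9% of these genes and 12.4%, 13.0%, 9.04% and 10.7% of the members, the smaller share in each setting. All 4 settings called 13 members higher and 34 lower, and no member was called in opposite directions in different settings. The sign of the ratio was negative in all 4 settings for 106 members, 40 of them on chromosome 19, and positive in all 4 for 34. These counts over all 4 settings were not made for other genes, so they describe the members only.

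In input RNA no member passed the edgeR test between the derivatives. In edgeR 0 of 177 were called between shIGF2BP3 and control in the mean of both treatments (background 0.406% of genes tested), and 8 had an unadjusted p under 0.05 (background 5.87%). DESeq2 called 1 member, where it called 96 genes higher and 54 lower of 16735. The median log2 difference was -0.05, with 114 members below 0. ZNF385A, a zinc finger protein that binds RNA and cooperates with p53, came nearest, at -0.97 ± 0.260 (edgeR adjusted p = 0.0959). Its 10 shIGF2BP3 input libraries (2.54 to 5.94 TPM) all lay below its 10 control input libraries (6.23 to 10.2 TPM), as in 0.0418% of genes tested. ZNF426 followed at -0.58 ± 0.177 (edgeR adjusted p = 0.222). An edgeR fit on the 20 input libraries alone called both (edgeR adjusted p = 0.00122 for ZNF385A and 0.0300 for ZNF426). ZNF385A was also called in input without unstimulated shIGF2BP3 polysome replicate 5 and without IL-13 shIGF2BP3 polysome replicate 5 (edgeR adjusted p = 0.0475 and 0.00631), both among the shallow libraries, which share the estimate of spread.

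In polysome RNA 2 members were called, both lower in shIGF2BP3 cells (background 0.699% lower and 0.681% higher). ZNF385A (ENSG00000161642.18, chromosome 12) measured 16.3, 9.82, 9.69, 15.2 and 13.9 TPM in unstimulated control libraries and 8.90, 20.3, 12.5, 14.2 and 13.1 TPM with IL-13. In shIGF2BP3 libraries it measured 5.49, 6.07, 7.87, 5.53 and 2.14 TPM unstimulated and 4.32, 5.61, 6.36, 7.43 and 0 TPM with IL-13. The lowest control library stood above the highest shIGF2BP3 library, which held for 0.0239% of genes tested. The library at 0 was IL-13 replicate 5, of 2302952 counts. The log2 difference was -1.47 ± 0.264 (SE; edgeR adjusted p = 0.00166), -1.32 without and -1.63 with IL-13. It did not differ from the input difference beyond the error of the interaction term (edgeR, -0.50 ± 0.366, unadjusted p = 0.180). On the 20 polysome libraries alone it was -1.46 with an adjusted p of 0.0662 in edgeR, so the call was lost there and the size was not. ZNF385A was also called higher in polysome than in input RNA (0.75 ± 0.184).

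ZNF426 (ENSG00000130818.12), a KRAB gene of chromosome 19 with 11 fingers, was lower by less and with more overlap. In polysome RNA it measured 2.69, 3.23, 2.16, 1.12 and 2.57 TPM in unstimulated control libraries and 2.62, 1.06, 2.06, 2.38 and 2.70 TPM with IL-13. In shIGF2BP3 libraries it measured 1.79, 1.48, 1.27, 1.43 and 3.89 TPM unstimulated and 1.93, 0.615, 2.30, 1.45 and 0.961 TPM with IL-13. The ranges overlapped, and the highest value of all came from the shallow unstimulated shIGF2BP3 replicate 5. The log2 difference was -0.69 ± 0.182 (edgeR adjusted p = 0.0432). The call did not hold without any of 18 libraries left out in turn, with adjusted p-values up to 0.0927. It was also lost with the replicate number as a block (edgeR adjusted p = 0.0543), DESeq2 size factors (0.0602), genes of at least 10 CPM (0.0730), no filter (0.106), a length offset (0.147) and the 20 polysome libraries alone (0.322). The libraries whose omission lost the call were the following. In polysome RNA these were control unstimulated replicates 2 and 5 and IL-13 replicates 1 and 5, and shIGF2BP3 unstimulated replicates 1 to 4 and IL-13 replicates 1, 2 and 5. In input they were shIGF2BP3 unstimulated replicates 2 to 5 and IL-13 replicates 2, 4 and 5. Leaving out unstimulated control polysome replicate 1 raised the members called to 4. Without both unstimulated control libraries numbered 1 they were 5, where 230 genes were called higher and 235 lower of 16995. In the main fit 114 genes were called higher and 117 lower of 16735. DESeq2 called 5 members, where it called 277 genes higher and 255 lower of 16735.

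**Figure D5:**
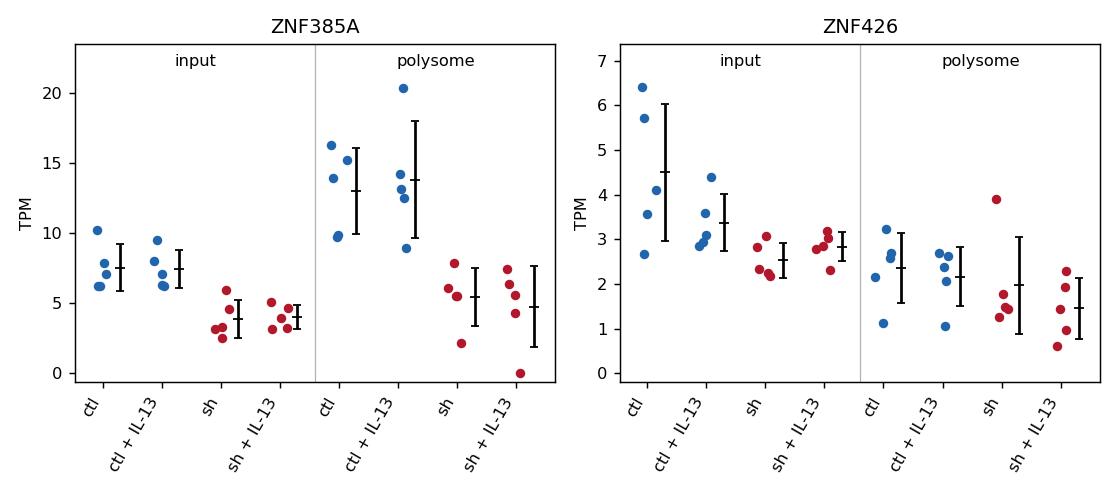
TPM (vertical axes) of ZNF385A and ZNF426 by group, 5 libraries each, with control (ctl) in blue and shIGF2BP3 (sh) in red and the mean ± SD beside the points. For ZNF385A every control library lies above every shIGF2BP3 library within a fraction (8.90 against 7.87 TPM at the nearest in polysome RNA), and for ZNF426 in polysome RNA the ranges overlap.

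Markers of other cell types were compared between the same groups. The summed endothelial list (PECAM1 and CDH5) was 0.0478 to 0.631 TPM in control and 0.924 to 4.38 TPM in shIGF2BP3 input libraries, with PECAM1 at or under 0.0296 TPM in each input library. The leukocyte list was 3.89 to 12.2 TPM in control and 6.26 to 12.5 TPM in shIGF2BP3 input, nearly all of it CD68, with PTPRC at 0 in each input library. The fibroblast list (COL1A1, COL1A2, PDGFRB and DCN) was 48.5 to 249 TPM in control and 97.2 to 173 TPM in shIGF2BP3 input. COL1A1 had an input median of 103 TPM and PDGFRB of 30.7 TPM, with DCN at or under 0.209 TPM in each input library. The part of these lists in the differences of ZNF385A and ZNF426 was not tested.

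Over all 177 members the polysome difference between derivatives was small and went with base composition and transcript length. The median was -0.06 against -0.04 over all genes tested, and 25 members (14.1%) had an unadjusted p under 0.05, against 14.7% of all genes tested. Spearman's rho with transcript GC was -0.51 over 176 members and -0.45 over 9328 protein-coding genes of at least 3 TPM. With transcript length it was 0.26 and 0.46, and with coding length 0.23 and 0.39. With the same genes split into 4 bins by GC, members in the highest, over 58.1%, had a median of -0.24 (17 of 17 below 0 on chromosome 19 and 25 of 33 elsewhere), and those in the lowest, under 43.7%, of 0.09. All protein-coding genes of these bins had medians near those, at -0.19 in the highest and 0.11 in the lowest. The median over members on chromosome 19 was -0.10 (44 of 66 below 0) and elsewhere -0.04, or -0.06 and 0.04 without the 3 libraries under 5000000 counts. Among the members without KRAB on chromosome 19, the GC-rich group, it was -0.25 with 20 of 23 below 0. Other genes of at least 3 TPM on chromosome 19 had a median of -0.22. By chromosome the medians were 0.07 on chromosome 19 and 0.10 elsewhere in the lowest bin, and -0.30 and -0.22 in the highest. The part of GC or length in the polysome difference was not tested.

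No member passed the test for IL-13. In input none was called in edgeR (background 0.149%) and none had an unadjusted p under 0.05 (background 1.96%), and DESeq2 called none. The members' log2 differences ran from -0.31 to 0.38 with a median of -0.02. The smallest p-values belonged to ZNF641 (-0.24 ± 0.151) and ZNF684 (0.34 ± 0.228). For ZNF684 the 10 unstimulated input libraries (2.17 to 3.88 TPM) lay within the range of the 10 with IL-13 (1.46 to 5.17 TPM). In polysome RNA none was called in edgeR (background 0.209%) or in DESeq2, and 3 had an unadjusted p under 0.05 (background 5.28%). ZNF707 measured 1.66 to 6.16 TPM in unstimulated polysome libraries (median 3.82) and 3.18 to 9.39 TPM with IL-13 (median 6.48), a log2 difference of 0.63 ± 0.209 (edgeR adjusted p = 0.432). ZNF585A, with 21 fingers, had medians of 2.96 and 5.26 TPM and a log2 difference of 0.47 ± 0.223 (edgeR adjusted p = 0.874). Both ranges overlapped. The members' median was 0.00 in polysome RNA, 0.01 on chromosome 19 and 0.00 elsewhere.

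No member was called for a change of the polysome ratio by the derivative or by IL-13, as an interaction term. For the derivative the background was 0.0% called and 1.91% at an unadjusted p under 0.05, which 3 members reached, led by ZNF346 (-0.30 ± 0.135) and ZNF747 (-0.45 ± 0.202). For IL-13 the background was 0.0% and 1.64%, and 1 member reached it, ZNF707 (0.77 ± 0.292), followed by ZNF585A (0.55 ± 0.307). DESeq2 called none in either. The median SE of these shifts over the members was 0.247, so differences of this size were not resolved.

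The genes through which KRAB proteins act were read as a fixed list of 18 corepressors. All 18 were called in polysome against input, 13 lower and 5 higher, where 38.9% and 26.2% of all genes tested were. TRIM28, the KRAB-binding corepressor, measured 160 to 240 TPM in input and 15.3 to 108 TPM in polysome RNA, a log2 ratio of -1.64 ± 0.148 (edgeR adjusted p = 1.66e-12). SETDB1, its methyltransferase partner, fell from a mean of 6.65 TPM in input to 4.09 TPM in polysome RNA (edgeR adjusted p = 0.00239). The lowest were DNMT1 (-4.00), the maintenance DNA methyltransferase, and CHD4 (-3.24), the remodeller regulated by ZNF410. Also lower were ATF7IP (-2.06), UHRF1 (-1.70), MORC2 (-1.53), CHD3 (-1.29), MPHOSPH8 (-1.13), TASOR (-0.93), DNMT3A (-0.70), KDM1A (-0.47) and HDAC2 (-0.37). Higher were the heterochromatin proteins CBX3 (1.42), CBX1 (1.16) and CBX5 (0.99), PPHLN1 (0.83) and HDAC1 (0.27). No corepressor was called in edgeR for the derivative, where 1 in each fraction had an unadjusted p under 0.05, or for IL-13, where 0 had one in input and 2 in polysome RNA. The list was not counted with DESeq2.

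Many ZNF genes of chromosome 19 are recent duplicates, so counts can be shared between copies and between transcripts of different length. The length implied by the ratio of estimated counts to TPM shifted between fractions by over 0.5 on the log2 scale in 4 members, all on chromosome 19 (ZNF675, ZNF431, ZNF93 and ZNF766), and by 0.50 in ZNF226. For these genes a polysome ratio in counts and one in TPM differ, and the size of either is uncertain, also for ZNF226 above. In polysome libraries 12 members were listed at 0 at least once, 14 values in all, of which 11 came from the 3 libraries under 5000000 counts. No input library listed a member at 0.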

How the data were processed

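RNA was measured in 40 libraries of BEAS-2B cells, 20 of input and 20 of polysome RNA in 8 groups of 5, from poly(A) RNA with a stranded paired-end kit per the labels' protocols. The deposited table holds, for each library, estimated counts per gene, which the authors made with Salmon after trimming with Trimmomatic, per the submitters' processing notes, which also name MultiQC and DESeq2. It also holds TPM values deposited by the authors, which sum to 82.33% to 85.87% of their full scale per library. Versions, genome build and annotation of that processing are not given in the sources used here. Estimated counts let reads shared by similar ZNF genes be split between them, and multiply mapped reads can therefore move between copies.

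Estimated counts were rounded and tested with edgeR 4.0.16 (R 4.3.3) by its quasi-likelihood test, with TMM scaling, filterByExpr, 1 mean per group, 32 residual degrees of freedom and Benjamini-Hochberg adjustment over 16735 genes. Calls took an adjusted p below 0.05, and errors of log2 values are standard errors from that fit. The design had been written for counts, and rounding was the one change the estimated counts needed. The alternatives were DESeq2 1.42.0, limma 3.58.1 on log2(TPM + 1) and log2(TPM + 0.1), other scaling, filters, blocks, thresholds and sets of libraries, and each library left out in turn. IGF2BP3 was compared on log2(CPM + 1) by an exact permutation test. On simulated counts the edgeR fit recovered 86.5% of 2-fold changes between polysome and input, 68% of those between derivatives in polysome RNA, 60.5% of those between derivatives in input and 36% of those in the interaction with the derivative, out of 200 changed genes each in 16424, 16419, 16417 and 16419 genes.

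Symbols of 62246 of 62263 genes, coding models and transcript sequences came from GENCODE 29 (GRCh38), using the longest coding transcript of a gene. A finger was a match of 2 cysteines 2 to 4 residues apart, 12 residues, and 2 histidines 3 to 5 residues apart. Patterns for KRAB and SCAN domains were searched in every coding transcript, and a missed match is possible. The polysome share was computed for the input and polysome libraries that share a group and a number, which the labels do not state to be 1 culture. Precision is limited by depth, at 1816848 counts in the shallowest library.

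The members and gene lists were chosen with earlier results of these data known, so no p-value is given for a list. Members were named if among the 10 of highest input level, among the 8 called members of largest fold in each direction whose fractions did not overlap in CPM, among the called members of a comparison (or the 2 of smallest p where none was called), or among the 3 nearest the threshold on each side. Members named outside this rule are marked as such, or are listed by a class of 5 or fewer.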

Additional observations from a re-analysis of the deposited data

Results flagged for a closer look

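Values of 30 named members were examined in each group of 5 libraries for a library standing far from the other 4. Of 240 such sets 24 held one, where about 1 in 20, or 12, are reached by chance, and 7 of the 24 were in the 3 libraries under 5000000 counts.

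In unstimulated shIGF2BP3 polysome replicate 5, the shallowest library, ZNF706 stood at 151.9 TPM (others 44.2 to 57.6), ZNF593 at 66.42 TPM (32.3 to 40.5), ZNF426 at 3.892 TPM (1.27 to 1.79) and ZNF638 at 1.668 TPM (0.201 to 0.620). In IL-13 shIGF2BP3 polysome replicate 5, also shallow, ZNF593 stood at 18.07 TPM (39.2 to 44.4), ZNF609 at 8.734 TPM (5.05 to 5.38) and ZNF707 at 9.387 TPM (5.96 to 6.72). The 2 libraries differed from their groups in opposite directions for ZNF593.

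In IL-13 control polysome replicate 2 both low members ZNF358, at 30.61 TPM (12.6 to 15.8), and ZNF219, at 20.06 TPM (9.27 to 11.5), were at their highest, together with ZNF428 at 130.1 TPM (92.8 to 101.6). In other control polysome libraries with IL-13, ZNF638 was at 0.883 TPM in replicate 3 (0 to 0.216) and ZNF747 at 11.68 TPM in replicate 4 (9.31 to 9.88).

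In IL-13 shIGF2BP3 input replicate 1, ZNF706 was at 63.26 TPM (77.6 to 80.3), ZNF593 at 85.2 TPM (50.9 to 60.8), ZNF684 at 5.168 TPM (3.24 to 3.67) and ZNF431 at 1.135 TPM (2.81 to 3.14). In the same group ZNF638 was at 4.787 TPM in replicate 3 (2.82 to 3.27) and ZNF580 at 34.22 TPM in replicate 5 (50.4 to 54.3). In unstimulated shIGF2BP3 input replicate 1, ZNF593 was at 73.87 TPM (57.7 to 61.9) and ZNF618 at 5.782 TPM (7.84 to 8.51). In unstimulated control input replicate 4, ZNF511 was at 93.17 TPM (61.5 to 67.1) and ZNF394 at 7.701 TPM (10.8 to 11.4). In control input with IL-13, ZNF271P was at 4.092 TPM in replicate 2 (1.32 to 2.07) and ZNF747 at 6.186 TPM in replicate 3 (7.87 to 8.48).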

How the results depend on the processing

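Of the alternatives run on named members, 1509 values kept their direction and side of the threshold, 14 passed it newly and 30 no longer passed it. Members called higher in polysome against input, 27 in the report, were 13 at a threshold of 10 TPM. They were 41 in the 37 libraries of at least 5000000 counts, where 5000 of 17405 genes tested were called higher. Those called lower, 91, were 200 at 1 TPM and 30 at 10 TPM. At these other thresholds more or fewer genes are members, and no share of other genes is given at them. Leaving out each library gave 27 to 44 higher and 83 to 95 lower, with no count over all genes for these omissions. The chromosome 19 difference in polysome ratio (-0.03) was -0.17 at 1 TPM and 0.15 at 10 TPM. The members' median ratio ran from -0.45 to -0.20 over scalings and fits, those with a single library left out not included. Its difference from all genes tested ran from -0.26 to 0.00 over the same fits. In input the members called between derivatives, 0, were 1 in the 37 libraries, 1 in DESeq2 and 2 in the 20 input libraries, and 0 to 1 with a library left out. In polysome RNA they were 2, with 0 at 10 TPM, 1 with DESeq2 size factors, 1 without the filter, 1 at 10 CPM, 1 with the length offset, 0 in the 20 polysome libraries alone, 5 in 38 libraries, 5 in DESeq2, and 1 to 4 with a library left out. Over all genes tested in polysome RNA, 230 were called higher and 235 lower in the 38 libraries. DESeq2 called 277 and 255, against 114 and 117 in the main fit. The cause of these changes was not tested. IGF2BP3 in polysome RNA ran from -0.37 to 0.21 unstimulated and from -0.54 to 0.054 with IL-13 with a library left out. It was higher in shIGF2BP3 cells without control replicate 2 (0.21) or 3 (0.17) or shIGF2BP3 replicate 1 (0.074), 3 (0.020) or 4 (0.16), and with IL-13 without shIGF2BP3 replicate 5 (0.054).

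Replicate numbers were not used to pair the libraries in the main fit. Of 20 pairs of input and polysome libraries that share group and number, 7 deviated together with r over 0.1 (r from -0.33 to 0.54). Among same-numbered libraries of different groups 17 of 60 did so, and 4 of 20 inputs correlated best with their own number. Such correlations cannot exclude pairing, and ZNF226 was at its lowest in both fractions in unstimulated control replicate 1. With the number as replicate block 27 members were called higher and 92 lower, 0 in input and 1 in polysome RNA between derivatives, and 0 for IL-13 and the interactions. Over all 16735 genes that fit called 4323 higher and 6561 lower in polysome against input. Between derivatives it called 49 and 15 in input and 107 and 100 in polysome RNA. With each pair of input and polysome libraries that share group and number as the block, 26 members were called higher and 94 lower. Over all genes 4004 were called higher and 6769 lower of 16735 in that fit. Limits are the depth of the 3 shallow libraries, reads shared by similar genes, and the error of interactions (median SE 0.247 over the members). On simulated counts the fit recovered 36% of 2-fold interactions with the derivative, in genes drawn from those tested and not from the members.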
